A study of Drosophila melanogaster with 6 samples.

Results

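The genes described here encode integrin chains, the integrin-binding protein talin, laminin chains and collagen IV chains of Drosophila. They were 10 genes given by name: mew, if and scb (integrin alpha chains), mys (integrin beta chain), rhea (talin), LanA, LanB1 and LanB2 (laminin chains), and vkg and Col4a1 (collagen IV chains). All probe sets that the platform annotation assigned to exactly 1 of these symbols were taken, which gave 12 of the 18769 probe sets that are not controls, for 10 of the 11893 genes with a named probe set. The genes mew and mys had 2 probe sets each, and each of the other 8 genes had 1. Their mRNA was measured in SL2 cells given double-stranded RNA (dsRNA) against ISWI, in 3 cultures, and in SL2 cells given dsRNA against GST, a control target, in 3 cultures. Each culture received 10 micrograms of dsRNA for 1 hour in serum-free medium and was harvested after 7 days, and its total RNA was hybridised to 1 array. SL2 is a single cell line from late Drosophila embryos with features of haemocytes, the insect blood cells, and no untreated cells were measured. ISWI is the ATPase of several nucleosome remodelling complexes, and the comparison asked which transcripts differ when it is depleted.

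Integrins are cell surface receptors made of 1 alpha and 1 beta chain, which bind extracellular matrix outside the cell and are coupled to actin inside it through talin. Laminins are trimers of an alpha, a beta and a gamma chain, and collagen IV is a trimer of collagen chains. Both are main components of the basement membrane, the sheet of matrix beneath epithelia and around organs. In Drosophila, haemocytes and the fat body are known sources of these matrix proteins.

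Values are log2 values per probe set, so a difference of 1 is a 2-fold difference, and levels of different probe sets were not compared with each other. Tests covered the 7390 probe sets whose log2 value exceeded 4 on 3 or more of the 6 arrays. Iswi itself had 7.66, 7.74 and 7.16 on the ISWI arrays, against 10.53, 10.54 and 10.47 on the GST arrays, or 12.6% of the GST level. Arrays differed in their control probe sets. The eIF-4a control probe sets differed between the 3' and the 5' end of the transcript by 1.91, 2.26 and 1.86 on the ISWI arrays. On the GST arrays they differed by 1.85, 1.75 and 1.69, so every ISWI array lay above every GST array. ISWI replicate 2 was also highest for actin (1.057, against 0.405 to 0.552) and GAPDH (0.913, against 0.582 to 0.749), where the groups overlapped. The part of these control differences in the changes was not tested. For the 18S rRNA controls the mean on GST replicate 1 was 13.0, while the others had 8.31 to 9.30. Of 9 haemocyte marker genes, all 9 were above a log2 value of 4 on every array, among them srp, Hml and He. Of the markers of other tissues, 4 of 4 fat body genes and 2 of 2 germline genes with a probe set were at or below 4 on every array, as were 3 of 4 muscle genes and 2 of 4 neuronal genes.

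Among integrins, laminins and collagen IV, the transcripts of mew and LanB1 were lower after ISWI dsRNA, and no member was called higher. Of 12 probe sets 11 were tested, and the probe set of if was not, since it lay below 4 on all 6 arrays. A probe set was called when limma's p, adjusted by Benjamini-Hochberg across the whole tested table, was under 0.05, and by this measure 3 of the 11 were lower, 0 higher, and 8 were not called. At an unadjusted p under 0.05 the counts were also 3 lower and 0 higher. Over all tested probe sets 40.2% were called, 18.1% lower and 22.1% higher. For calls in either direction the share of the members was below that of all probe sets. For lower calls alone it was somewhat above, and this difference was not tested. The excess of higher calls over all probe sets turned when the arrays were centred (1477 higher, 1511 lower) or quantile-normalized again (1510 higher, 1525 lower). At the gene level 2 of 9 tested members were called, both lower, against 41.1% of 5997 tested genes (17.6% lower and 23.4% higher). The median log2 change of the 11 probe sets was -0.17, against 0.01 over all tested probe sets. Without regard to sign the medians were 0.17 and 0.20, so the members did not change by more than probe sets in general. The genes mew and mys each enter the 11 with 2 probe sets. Of the 11 probe sets 5 had groups that did not overlap (3 with ISWI below GST, 2 with ISWI above GST), against 54.1% of all tested probe sets (24.7% with ISWI below and 29.4% with ISWI above). The plot of values by array shows these 12 probe sets.

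**Figure D1:**
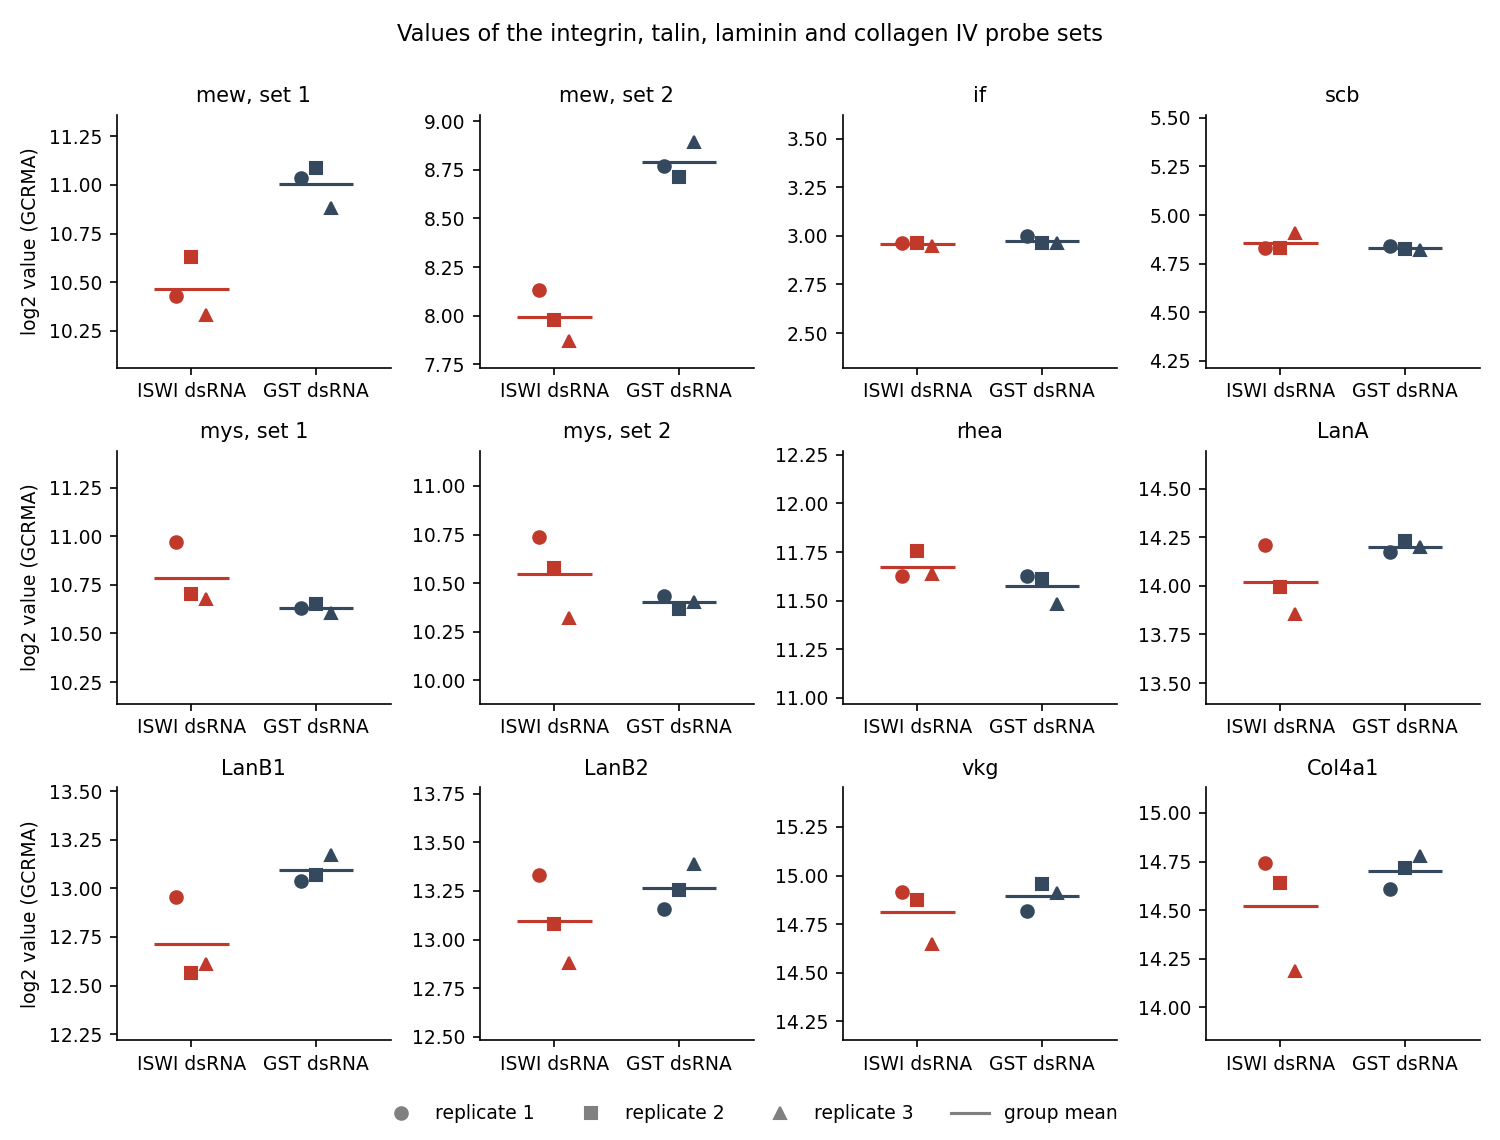
Log2 values (vertical axes, each spanning 1.3 units) of the 12 probe sets on the 3 ISWI arrays (left, red) and the 3 GST arrays (right, dark), with 1 symbol per replicate and a line at the group mean. Both mew probe sets and that of LanB1 have all ISWI arrays below all GST arrays, and if stays between 2.95 and 3.00 on every array.

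The gene mew encodes the integrin chain alphaPS1, which with the mys product forms a laminin-binding integrin, and its 2 probe sets had the largest changes of the 11 tested. Its first probe set had 10.43, 10.63 and 10.33 on the ISWI arrays, against 11.04, 11.09 and 10.88 on the GST arrays. The highest ISWI value was thus below the lowest GST value. The mean was 10.46 ± 0.15 in ISWI cells and 11.00 ± 0.11 in GST cells (SD, n = 3 each). The log2 change was -0.54 with a standard error of 0.09, which is 68.8% of the GST level, with limma adjusted p = 0.00247.

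The second mew probe set also fell. It had 8.13, 7.98 and 7.87 on the ISWI arrays, against 8.77, 8.71 and 8.89 on the GST arrays, again without overlap. The log2 change was -0.80 with a standard error of 0.09 and limma adjusted p = 0.000415, which is 57.5% of the GST level. The 95% intervals of the 2 probe sets, -0.75 to -0.33 and -1.01 to -0.59, overlapped, and the difference between them was not tested. Without any single array, the change lay between -0.62 and -0.47 for the first probe set and between -0.87 and -0.74 for the second, and both stayed called.

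The other alpha chains showed no call. The gene if encodes alphaPS2, known from muscle attachment sites. It read 2.96, 2.97 and 2.95 on the ISWI arrays, against 3.00, 2.96 and 2.96 on the GST arrays, a nearly constant low level at which no change was measurable. The gene scb encodes alphaPS3, a chain also known from phagocytosis. It read 4.83, 4.83 and 4.91 on the ISWI arrays, against 4.84, 4.83 and 4.82 on the GST arrays. Its log2 change of 0.03 had a 95% interval of -0.23 to 0.28 (limma adjusted p = 0.871). All 6 values of scb were within 0.087 of each other and little above the level of 4. Such a nearly constant low level cannot be told apart from that of a transcript that was not detected. The sign of the scb change turned when the arrays were centred on their medians (-0.0041) or quantile-normalized again (-0.14), and without ISWI replicate 3 (-0.0003).

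The gene mys encodes betaPS, the beta chain that pairs with these alpha chains, and it was not called lower or higher. Its first probe set had 10.97, 10.70 and 10.68 on the ISWI arrays, against 10.63, 10.65 and 10.60 on the GST arrays. The ISWI arrays lay above the GST arrays, but by little on replicates 2 and 3. The log2 change of 0.15 had a 95% interval of -0.04 to 0.34 and was not called (limma adjusted p = 0.169). By the naming of the array maker, the suffix x of this probe set marks probes that can also match other transcripts.

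The second mys probe set carries no such mark, and its groups overlapped. It had 10.74, 10.58 and 10.32 on the ISWI arrays, against 10.44, 10.37 and 10.40 on the GST arrays. The change was 0.14 with an interval of -0.09 to 0.37 (limma adjusted p = 0.284). Without ISWI replicate 3, which held the lowest value, it was 0.26 and was called at adjusted p = 0.0220, while without ISWI replicate 1 it was 0.0474 (adjusted p = 0.680). The change of the first mys probe set was 0.0604 without ISWI replicate 1.

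The gene rhea encodes talin, which binds the tail of the beta chain and links it to actin. It had 11.63, 11.76 and 11.64 on the ISWI arrays, against 11.63, 11.61 and 11.48 on the GST arrays. The ISWI arrays lay above the GST arrays by a narrow margin. The log2 change of 0.10 had a 95% interval of -0.04 to 0.24 and was not called (limma adjusted p = 0.205). It was 0.06 without GST replicate 3 and 0.06 without ISWI replicate 2.

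**Figure D2:**
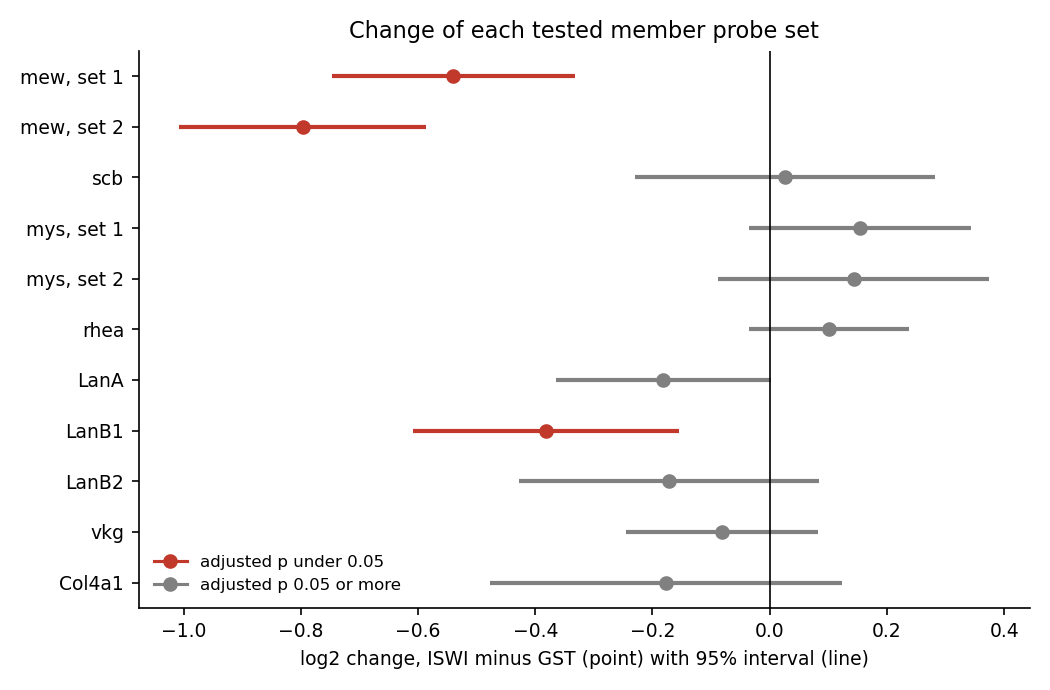
Log2 change (ISWI minus GST, horizontal axis) of the 11 tested probe sets, 1 row each, as a point with its 95% interval from limma. Red marks an adjusted p under 0.05, which holds for the 2 mew probe sets (-0.54 and -0.80) and for LanB1 (-0.38). All other intervals include 0.

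Of the laminin chains only LanB1 was called. LanB1 encodes the laminin beta chain. Its probe set carries the suffix s, as does that of Col4a1, and matches of these probes to other transcripts were not examined. It had 12.95, 12.57 and 12.61 on the ISWI arrays, against 13.04, 13.07 and 13.17 on the GST arrays. Every ISWI value was below every GST value, ISWI replicate 1 by the narrowest margin. The mean was 12.71 ± 0.21 in ISWI cells and 13.09 ± 0.07 in GST cells (SD, n = 3 each), a log2 change of -0.38 with a standard error of 0.10, or 76.8% of the GST level (limma adjusted p = 0.0170). The call was lost without GST replicate 3, where the change was -0.34 (adjusted p = 0.0683), and when no filter on dim probe sets was used (adjusted p = 0.0533).

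LanA encodes 1 of the laminin alpha chains of the fly, and its groups overlapped. It had 14.21, 14.00 and 13.86 on the ISWI arrays, against 14.18, 14.23 and 14.20 on the GST arrays. ISWI replicate 1 lay within the GST range and the other ISWI arrays lay below it. The log2 change was -0.18, with a 95% interval of -0.37 to 0.0017 (limma adjusted p = 0.103).

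LanB2 encodes the laminin gamma chain. It had 13.33, 13.08 and 12.88 on the ISWI arrays, against 13.16, 13.26 and 13.39 on the GST arrays. Again ISWI replicate 1 lay within the GST range and the other ISWI arrays below it. The log2 change was -0.17, with an interval of -0.43 to 0.08 (limma adjusted p = 0.248). Without ISWI replicate 1 both LanA (-0.28, adjusted p = 0.00629) and LanB2 (-0.29, adjusted p = 0.0366) were called lower, beside LanB1 at -0.50. Without ISWI replicate 3 the changes were smaller, at -0.10 for LanA and -0.06 for LanB2 (adjusted p = 0.244 and 0.618), and LanB2 was at -0.11 without GST replicate 3. Neither was called without any array but ISWI replicate 1.

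The collagen IV genes vkg and Col4a1, which lie next to each other on chromosome 2L, were not called. The gene vkg, for the alpha2 chain, had 14.92, 14.87 and 14.65 on the ISWI arrays, against 14.82, 14.96 and 14.91 on the GST arrays. The groups overlapped, and ISWI replicate 3 was the lowest array. Its log2 change was -0.08 with a 95% interval of -0.24 to 0.08 (limma adjusted p = 0.394), and without ISWI replicate 3 it was 0.0013, without ISWI replicate 1 -0.13 and without GST replicate 2 -0.05.

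Col4a1, for the alpha1 chain, had 14.74, 14.64 and 14.19 on the ISWI arrays, against 14.61, 14.72 and 14.78 on the GST arrays. ISWI replicate 3 was again the lowest array, and the other ISWI arrays lay within the GST range. The log2 change was -0.18 with an interval of -0.48 to 0.12 (limma adjusted p = 0.309). It was -0.0085 without ISWI replicate 3 and -0.29 without ISWI replicate 1. The intervals do not include a change of 2-fold for either collagen gene.

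Members were also compared in pairs, as the difference of their log2 values on the same array. The alpha chains of mew, if and scb are alternatives that do not share an integrin, and rhea encodes no integrin chain. Each pair was put to an exact two-sided permutation test over the arrays. With 3 against 3 arrays the smallest possible p is 0.1, so this test cannot reach 0.05. There were 8 pairs, and the p-values were adjusted over them. For mew and mys the first probe set was used, that of mys with the suffix x. Their second probe sets were not compared in this way. The mew minus mys difference was -0.54, -0.07 and -0.35 on the ISWI arrays, against 0.41, 0.44 and 0.28 on the GST arrays. The alpha chain thus changed by -0.69 relative to the beta chain, without overlap of the groups (exact permutation p = 0.1, adjusted p = 0.160, n = 3 each). Relative to scb, mew changed by -0.57, also without overlap (exact permutation p = 0.1, adjusted p = 0.160). Since scb was nearly constant and little above the level of 4, this difference holds little beyond the change of mew. Relative to if the change of mew was -0.52, with the same p-values. Here if stood at its low constant level, so that this difference also holds little beyond the change of mew.

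Within the laminin trimer, LanB1 changed by -0.20 relative to LanA and by -0.21 relative to LanB2, in both cases with all 3 ISWI arrays below all 3 GST arrays (exact permutation p = 0.1, adjusted p = 0.160 for each). LanB2 relative to LanA gave 0.01, with overlapping groups (exact permutation p = 1). The pair vkg and Col4a1 gave 0.10 (exact permutation p = 0.5) and the pair mys and rhea 0.05 (exact permutation p = 0.9), both with overlap. The mew and LanB1 probe sets had no overlap by themselves either, and 54.1% of all tested probe sets likewise had none. The separation of their pairs is thus not independent of their own changes. The plot of within-array differences shows the 8 pairs.

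**Figure D3:**
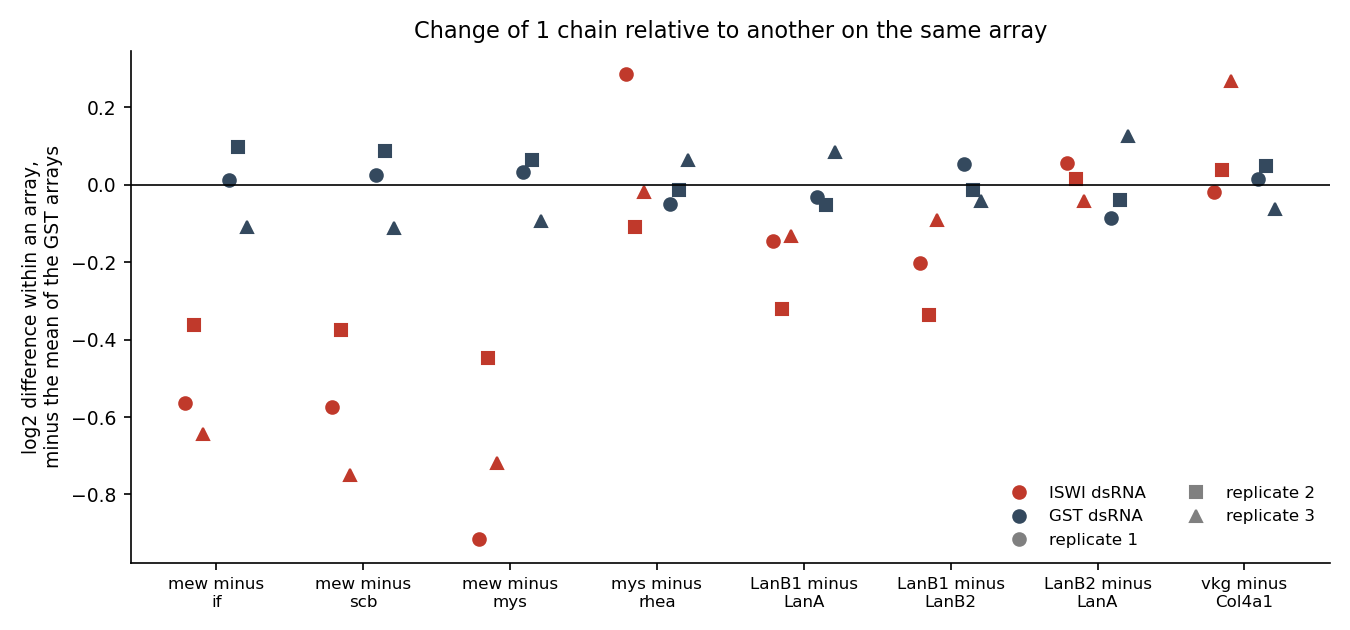
Difference of the log2 values of 2 genes on the same array, minus the mean of this difference over the GST arrays (vertical axis), for 8 pairs of genes, with ISWI arrays in red at the left and GST arrays dark at the right of each pair and 1 symbol per replicate. The 3 pairs with mew and the 2 pairs with LanB1 have no overlap between ISWI and GST arrays, and the other 3 pairs overlap. The mew and LanB1 probe sets have no overlap by themselves either.

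The ISWI arrays differed among themselves in these genes more than the GST arrays did. The 11 tested probe sets had a median SD of 0.16 among ISWI arrays and 0.07 among GST arrays, and 10 of the 11 varied more among ISWI arrays. Over all 7390 tested probe sets the median SDs were 0.11 and 0.07, and 71.5% varied more among ISWI arrays. Of the 11, 8 had their highest ISWI value on replicate 1, against 23.3% of all tested probe sets. Likewise, 8 of the 11 had their lowest ISWI value on replicate 3, against 29.9% of all. In the collagen, laminin and mys probe sets ISWI replicate 1 lay 0.10 to 0.24 above its group mean, and ISWI replicate 3 lay below it in each of them, by 0.34 for Col4a1. ISWI replicate 3 also had the lowest Iswi value, 7.16, while the highest, 7.74, was on replicate 2 and replicate 1 had 7.66. The part of these array differences in the changes was not tested.

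**Figure D4:**
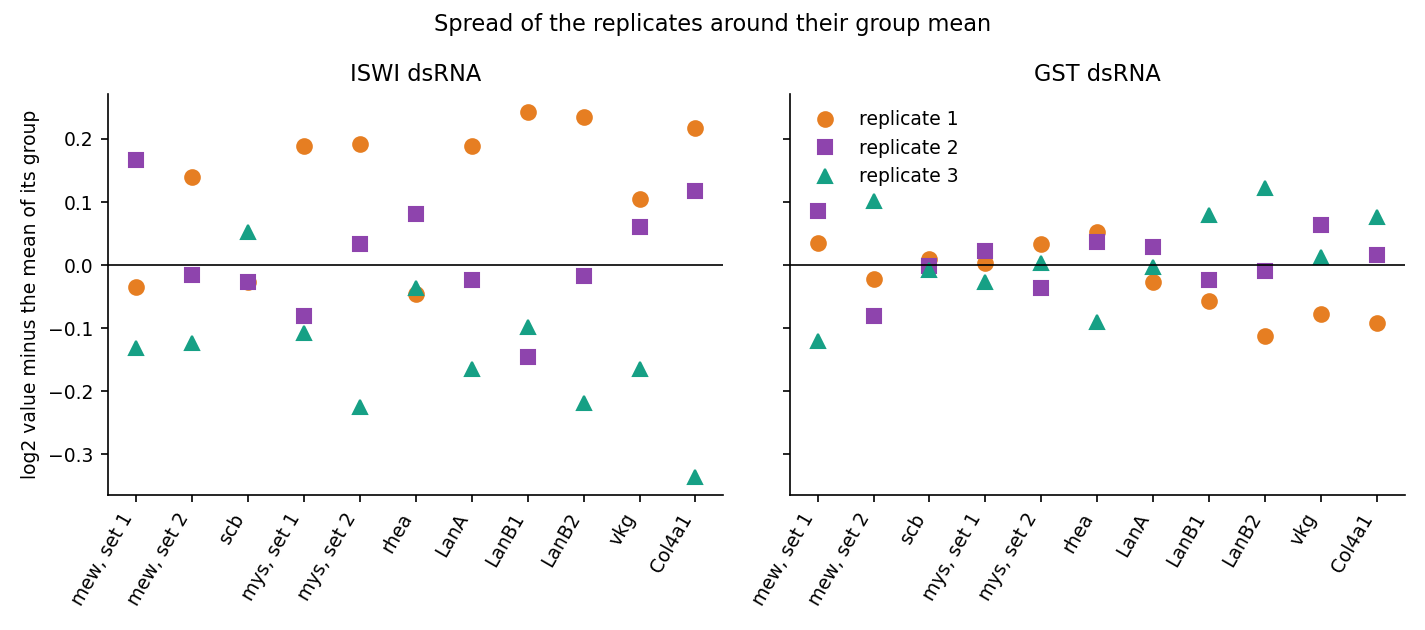
Log2 value minus the mean of its group (vertical axis) for the 11 tested probe sets on the 3 ISWI arrays (left) and the 3 GST arrays (right), 1 symbol per replicate. ISWI replicate 1 is the highest ISWI array in 8 of 11 probe sets and ISWI replicate 3 the lowest in 8 of 11, and the GST arrays lie closer together.

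Of the 9 haemocyte markers 4 were called lower (NimC1 at -0.86, Pxn at -0.29, srp at -0.28 and Pvr at -0.26) and 2 higher (eater at 0.75 and crq at 0.22). Among all tested genes 17.6% were called lower and 23.4% higher. The sum of their log2 values was 110.76 to 111.72 on the ISWI arrays and 112.23 to 112.50 on the GST arrays. The neuronal markers with a probe set summed to 17.77 to 18.24 on the ISWI arrays and 18.32 to 18.98 on the GST arrays, of which elav and brp were above 4 on every array. Of these 2, brp was called lower at -0.29 (limma adjusted p = 0.0454), and elav was at -0.39 and not called (limma adjusted p = 0.0945). The part of these markers in the changes of mew and LanB1 was not tested, and in bulk RNA fewer cells of a type and less RNA per cell cannot be told apart.

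The remaining genes of the pathway were read from 4 lists. Of the 3 other integrin subunits only Itgbn was tested, and it rose. It encodes betanu, a second beta chain with a role in phagocytosis by haemocytes. Its values were 8.58, 8.73 and 9.11 on the ISWI arrays, against 7.67, 7.69 and 7.52 on the GST arrays. The log2 change was 1.19 with a standard error of 0.14 (limma adjusted p = 0.000425). The alpha chain genes ItgaPS4 and ItgaPS5 were not tested. ItgaPS4 had 3.23, 2.90 and 4.29 on the ISWI arrays, against 2.48, 2.47 and 2.46 on the GST arrays, and was above 4 on 1 array. ItgaPS5 had 2.89, 2.89 and 3.46 on the ISWI arrays, against 2.24, 2.22 and 2.22 on the GST arrays. Both had all ISWI arrays above all GST arrays, at or near the low level where size has little meaning.

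Of 16 tested genes of the integrin adhesion complex inside the cell, 4 were called higher, 1 lower and 11 were not called. That is 31.2%, against 41.1% of all tested genes, with a median log2 change of 0.05 against 0.03 over all genes. The gene stck encodes PINCH, an adaptor bound to integrin-linked kinase, and it fell. It had 11.07, 11.12 and 11.00 on the ISWI arrays, against 11.53, 11.56 and 11.62 on the GST arrays, a change of -0.51 with a standard error of 0.05 (limma adjusted p = 0.000239). Its partners in this complex were not called, with changes of 0.09 for Ilk and -0.09 for parvin.

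The gene by encodes tensin, which binds integrin tails and actin, and it rose. It had 7.43, 7.56 and 7.89 on the ISWI arrays, against 6.89, 6.71 and 6.85 on the GST arrays, a change of 0.81 with a standard error of 0.13 (limma adjusted p = 0.00190). The actin regulators Actn (alpha-actinin) and ena (Enabled) rose by 0.31 and 0.29, with limma adjusted p = 0.0218 and 0.0204. Vinc (vinculin), the remaining call of this list, was named after its value was seen and rose by 0.21. Without GST replicate 1 and without GST replicate 3 only by remained called higher. Actn and Vinc lost their calls without ISWI replicate 1, which left 2 genes higher, Vinc also lost it without ISWI replicate 2, and ena lost its call without any of the GST arrays.

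Of 11 tested genes of other basement membrane and matrix proteins, 2 were called higher and 2 lower, or 36.4%, with a median change of 0.0023. Dg encodes dystroglycan, a second kind of laminin receptor, and it rose. It had 6.12, 6.39 and 6.14 on the ISWI arrays, against 5.50, 5.53 and 5.54 on the GST arrays, a change of 0.70 with a standard error of 0.11 (limma adjusted p = 0.00204). The glypican gene dlp rose by 1.17 (limma adjusted p = 0.00905) and averaged 5.52 in ISWI cells and 4.35 in GST cells, the second close to the level of 4. Tig (tiggrin, a ligand of integrins) and Pxn (peroxidasin, which crosslinks collagen IV) fell by 0.30 and 0.29, with limma adjusted p = 0.0366 and 0.0365. Pxn lost its call without any single array but ISWI replicate 1, Tig lost its call without any of the GST arrays, and the other Pxn probe set gave -0.21 (adjusted p = 0.411). SPARC, a collagen-binding matrix protein, had a change of 0.0023, and the second laminin alpha chain gene, wb, of 0.11. Neither was called. Ndg (nidogen), Mp, Timp, Loxl1 and Loxl2 lay below 4 on all arrays.

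Of 14 tested genes for the processing and secretion of collagen and laminin, 1 was called higher and 2 lower, or 21.4%, with a median change of -0.08. Plod encodes lysyl hydroxylase, which modifies collagen in the endoplasmic reticulum. It had 10.23, 10.30 and 10.40 on the ISWI arrays, against 10.52, 10.77 and 10.86 on the GST arrays, a change of -0.41 with a standard error of 0.09 (limma adjusted p = 0.0102). The prolyl hydroxylase gene PH4alphaEFB had a change of -0.07 and was not called. Tango1, for a receptor that loads collagen into transport carriers, rose by 0.27, and the coat protein gene Sec31 fell by 0.26, with limma adjusted p = 0.00625 and 0.00980. The plot of pathway genes places mew and LanB1 beside these lists.

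**Figure D5:**
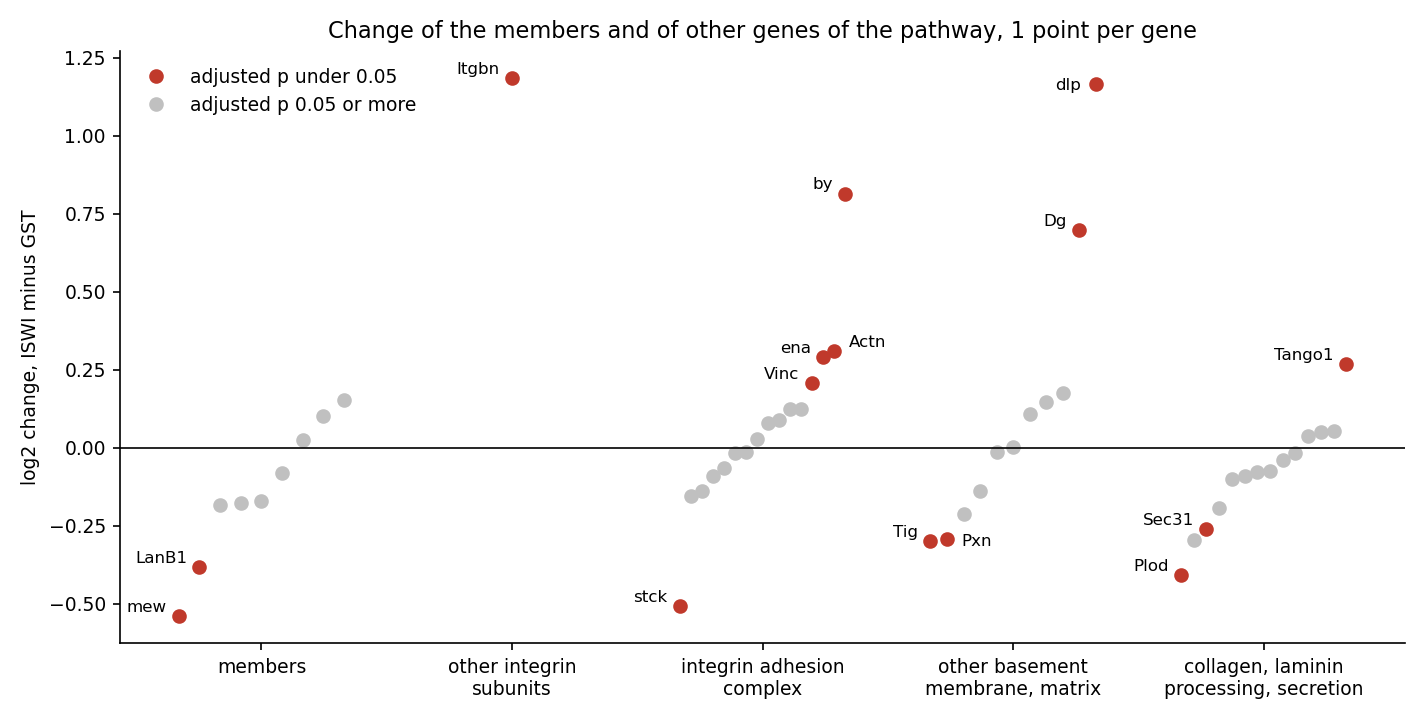
Log2 change (ISWI minus GST, vertical axis) of each tested gene, 1 point per gene, for the 9 tested members and the 4 pathway lists, sorted within each list. Red points, with names, have an adjusted p under 0.05 and grey points do not. The called genes run from -0.54 for mew to 1.19 for Itgbn, and 3 of the lists hold calls in both directions.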

How the data were processed

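RNA of 3 ISWI and 3 GST cultures was measured on 1 biotin-labelled array each. The values used are the deposited log2 values per probe set, made with GCRMA per the submitters' processing notes. GCRMA in general corrects background, normalizes by quantiles and summarises probes. Transcripts that are not detected then get almost the same low value on each array, and a global shift of RNA is removed. Its version is not given in the sources used here.

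Of 18952 probe sets 183 controls were left out. The platform annotation gave 1 symbol to 13646 of the others, several to 402 and none to 4721. Through gene IDs 13543 matched a RefSeq table of Release 6, used for current names, neighbours and the gene lists. Probe sets without a match were left out of the gene counts and of the search for genes of like pattern. The level of 4 on at least 3 of 6 arrays was chosen, not measured. The two-sided tests were made in R 4.3.3 with limma 3.58.1, moderating the variances along a trend with intensity, and the probe set with the highest mean stood for a gene. Groups came from the sample titles, and the series design calls the replicates biological. The script was tested on simulated data.

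The members and gene lists were chosen with earlier results of these data known. Named were Iswi, all members, up to 4 called genes per pathway list by adjusted p, the nearest neighbours of each member, and the gene most like each called member. List genes without a probe set of 1 symbol were not analysed here, and a planned search of promoters for motifs was not run, as no promoter sequences were used here. Alternatives were other filters, normalizations, variance moderation, array weights, a replicate block, a threshold of 0.01, another probe set per gene, and leaving out each array. The number of arrays limits the precision.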

Additional observations from a re-analysis of the deposited data

How the results depend on the processing

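Both mew probe sets were called lower under all 15 alternatives, and LanB1 under 12 of 15, with -0.38 at adjusted p = 0.0533 without a filter, -0.34 at adjusted p = 0.0683 without GST replicate 3, and adjusted p = 0.0170 against a threshold of 0.01. The change of scb was -0.14 after quantile normalization, -0.0041 with centred arrays and -0.0003 to 0.0398 without single arrays, and that of vkg -0.13 to 0.0013 without single arrays. The sign of both turned without ISWI replicate 3. None of these values was called. Leaving out single arrays gave 2 to 5 member probe sets lower and 0 to 1 higher, 1 to 4 member genes lower, 1 to 4 adhesion complex genes higher and 0 to 3 matrix genes lower. Counted as genes, 1 member was lower without a filter and 1 at a threshold of 0.01. Without a filter the counts were also 2 other integrin subunits higher, 1 adhesion complex gene higher and 0 matrix genes lower. Above a level of 6, 1 matrix gene was higher. Adhesion complex genes were 2 lower after quantile normalization, and 2 higher and 2 lower with centred arrays. Matrix genes were 0 lower without the intensity trend. At 0.01 the calls over all probe sets were 986 higher and 763 lower, with 1 adhesion complex gene higher, 0 matrix genes lower and 1 processing and secretion gene lower. Centring and repeated quantile normalization each shifted the ISWI minus GST difference of the tested probe sets by a median of -0.03.

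The replicate numbers were not taken as pairs, since the series design names no pairing. The deviations of same-numbered arrays correlated at -0.18, 0.12 and 0.06 across probe sets, and those of differently numbered arrays at -0.24 to 0.14. With the replicate block 1528 probe sets were higher and 1280 lower, against 1634 and 1340 without it, the member count was again 3 lower and 0 higher, and of the named genes REG lost its call. Of the within-array differences, that of mys and rhea turned to -0.06 without ISWI replicate 1, and that of LanB2 and LanA, near 0 throughout, also changed sign without single arrays. After quantile normalization mew minus scb was -0.42 and vkg minus Col4a1 was 0.17 (exact permutation p = 0.1). The 5 pairs with mew or LanB1 stayed below 0 under every alternative run for them.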

Other observations

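The nearest annotated genes on both sides that do not overlap the member gave 18 distinct genes that are no member, of which 7 were tested. Genes overlapping a member were left out, namely CG32639 and CG15742 for mew, and lncRNA:CR43910, mir-190 and CG6638 for rhea. REG, beside mew, was called higher at 0.19 (standard error 0.06, limma adjusted p = 0.0400), and CG3335, beside LanB2, lower at -0.36 (standard error 0.10, limma adjusted p = 0.0218), so that 2 of 7 were called, against 41.1% of all tested genes. REG lost its call without any single array but ISWI replicates 1 and 3, and CG3335 without any but ISWI replicates 1 and 2. Neither neighbour of LanB1 was called: Cdc14 had a change of -0.0035, and an antisense RNA gene on the other side was not analysed here. The integrin gene ItgaPS4 is the neighbour of scb.

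Among 5988 tested genes that are no member, CG32264 had the pattern most like the first mew probe set over the 6 arrays (Pearson r = 0.998, with a log2 change of -0.42). The kinesin gene ncd was most like the second mew probe set (r = 0.999, log2 change -0.29), and Ythdc1, for a reader of methylated RNA, was most like LanB1 (r = 0.999, log2 change -0.38). The arrays fall into 2 groups, and a difference between the groups alone raises r. In the same order 156, 318 and 75 genes had r above 0.95.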
